A study of Drosophila melanogaster with 36 samples.

Results

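The 200 transcripts described here are those with the largest excess in males in whole *Drosophila melanogaster* flies, out of an array that measured 16437 transcripts besides them. They were chosen by the median log2 intensity of the 18 male arrays minus that of the 18 female arrays, so the difference between the sexes is what selected them and is given without a test. In flies, most strongly male-biased transcripts are made in the male reproductive tract. The testis transcribes a large set of genes in its germ line that is silent in most other tissues, many of them needed to build the sperm tail and repackage the sperm nucleus, and the accessory glands make seminal fluid proteins in great quantity. Females have neither organ, and their whole-body RNA is dominated in turn by the ovary. In RNA of whole flies, fewer cells of a type and less RNA per cell cannot be told apart.

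Males and females of 6 homozygous strains on the w1118 background were compared, with 3 arrays (A, B and C) for each strain and sex. Each array measured the RNA of 50 virgin flies that had aged 5 to 7 days, and the replicates came from separate low-density crosses. REC has red eyes and carries 2 intact FRT-bearing elements, P{RS3}CB-0236-3 being in cis to the other, P{RS5}5-HA-1995. INV1 and INV2 carry the engineered inversion In(2R)51F11-56E2, by which the conserved region from CG15121 to CG16894 is broken up, and their eyes are red because a mini-white gene was reconstituted. SIM1 passed through the same heat shock without inverting, in REV1 and REV2 the inversion was reverted, and these 3 strains have white eyes. Each strain is 1 line, so a difference between strains is one between lines. The array identifies transcripts by FlyBase number alone. The gene table used here names 44 of these numbers (0.264%), 1 of them among the 200 transcripts. None of 121 marker names of testis, accessory gland and other tissues could be paired with an identifier, so the tissue of origin was not checked against markers.

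In males the 200 transcripts lay near the top of the intensity scale and in females near its floor. Their male medians spanned 12.92 to 15.12 on the log2 scale (intensities of 7767 to 35621), with a median of 13.83, where the median of all transcripts in males was 10.95. They made up 29 of the 100 brightest transcripts in males, 94 of the brightest 500, and all but 1 of them were among the brightest 2000. Their female medians spanned 7.35 to 8.94 (intensities of 163 to 491), with a median of 7.88 against 10.39 for all transcripts, and the lowest value of any transcript on a female array was 7.08. All 200 fell in the lower 50% of the female levels, 173 (86.5%) in the lowest 25% and 66 (33%) in the lowest 10%. Signal near the floor was what most of them had left in females. The choice itself forces part of this. With differences of at least 5.48 and no male value above 15.73, no member could reach the female median of all transcripts. With no female value below 7.08, every male median likewise had to lie above 12.18, the 75th percentile of all transcripts in males. Each transcript is read by its own probes, so the order between transcripts is one of signal and not of RNA amount.

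**Figure D1:**
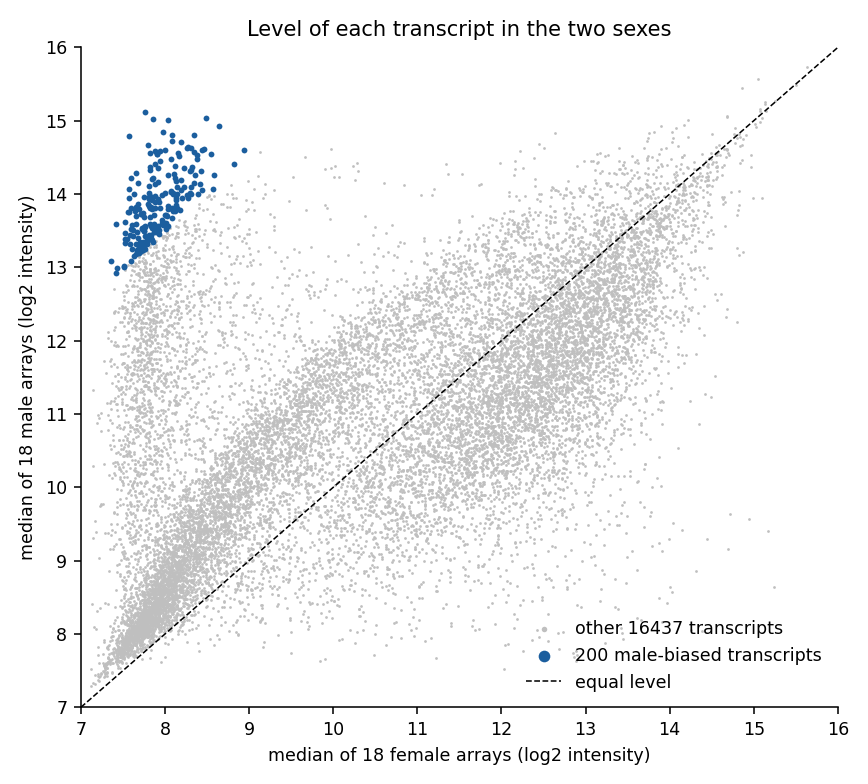
Median log2 intensity of each transcript over the 18 female arrays (x axis) and the 18 male arrays (y axis), with the 200 male-biased transcripts in blue, the other transcripts in grey and a dashed line of equal level. The blue points fill the upper left corner, with male medians from 12.92 to 15.12 and female medians from 7.35 to 8.94, and pass without a gap into the grey ones.

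The male minus female differences ran from 5.48 to 7.36, with a median of 5.88 on the log2 scale. They exceeded 6 for 80 transcripts and 7 for 3. No break separated the list from what followed it, since its last 2 transcripts (FBtr0082907 and FBtr0087023) stood at 5.489 and 5.483 and the first 2 outside it (FBtr0079731 and FBtr0100602) at 5.481 and 5.478. Over all transcripts the lowest male value exceeded the highest female value for 40.5%, and it did so for all 200, as the choice makes likely. Within the list the smallest such gap was 3.33 and the median gap 4.91. The deposited values of the sexes keep different distributions, with a median difference of 0.37 over all transcripts, which enters the 40.5%.

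FBtr0072046 had both the largest difference, 7.36, and the highest male median. In males its lowest, median and highest values were 14.77, 15.12 and 15.39, and in females 7.62, 7.76 and 7.92. Its strain means in males lay between 14.94 ± 0.06 (REC, SD, n = 3) and 15.30 ± 0.08 (REV2), a spread of 0.35. FBtr0110819, second in rank with a difference of 7.22, had male values from 13.95 to 15.09 and female values from 7.36 to 7.94. The second brightest transcript in males was FBtr0083826 (median 15.04, rank 17). The dimmest were FBtr0080413 (12.92, rank 195) and FBtr0076701 (intensity 8179, rank 179), which still stood above 87.6% and 88.7% of all transcripts in males.

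The one transcript that the gene table names, FBtr0084138 at rank 196, belongs to CG31178, a protein-coding gene on chromosome arm 3R. In males its REC arrays read 12.80, 12.45 and 12.86, those of INV1 12.71, 12.34 and 13.31, those of INV2 13.03, 13.26 and 13.21, those of SIM1 12.98, 13.04 and 12.26, those of REV1 12.85, 13.19 and 13.23, and those of REV2 12.99, 13.29 and 13.17. All 18 female values lay between 7.41 and 7.69, around a median of 7.51 that exceeded 2.40% of all transcripts. The INV2 and REV2 males lay above the REC males without overlap and every other pair of male strains overlapped, and the test of the 6 strains did not pass its threshold (limma adjusted p = 0.408 in males and 0.624 in females). The lowest 3 male values of this transcript were those of SIM1 C, INV1 B and REC B, arrays that recur below.

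The members differed much more between male arrays than between female arrays, and mostly on 4 of the male ones. The median of the 200 transcripts was 13.37 on REC B, 13.26 on INV1 A, 13.42 on INV1 B and 13.22 on SIM1 C, and lay between 13.80 and 13.95 on each of the other 14 male arrays. On the 18 female arrays it stayed between 7.83 and 7.93. The pooled SD of these array medians within strains was 0.225 in males, 0.039 in males without the 4 arrays and 0.028 in females. All transcripts varied more in males too, with a median residual SD of 0.206 against 0.109 in females. The choice also placed the members near the floor in females. Every male strain that held one of the 4 arrays also held at least 1 that did not. REC A and C had medians of 13.83 and 13.83, INV1 C had 13.87, and SIM1 A and B had 13.90 and 13.81, so that the low arrays parted from the replicates of their own strain. No label sets these 4 arrays apart. They were picked because they depart from the others in these data, so the comparison with the remaining 14 is a description, and the cause was not tested.

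**Figure D2:**
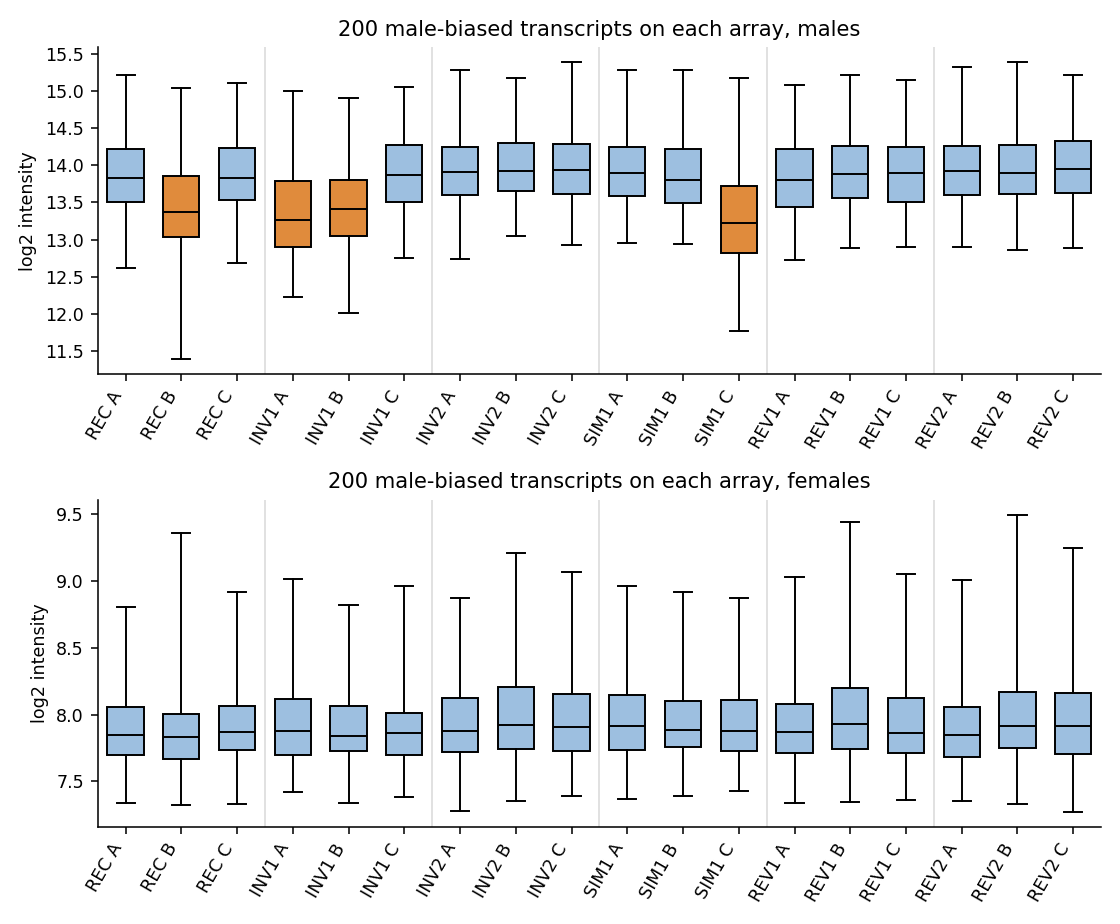
Log2 intensity (y axis) of the 200 transcripts on each of the 18 male arrays (upper panel) and 18 female arrays (lower panel), with the box from the 25th to the 75th percentile, the median as a line and whiskers to the lowest and highest transcript. The orange boxes of SIM1 C, REC B, INV1 A and INV1 B, with medians of 13.22 to 13.42, lie below the other male boxes, whereas the female medians stay between 7.83 and 7.93.

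Taken transcript by transcript, the reduction was shared by nearly the whole list. Against the median of the other 14 male arrays, all but 1 of the 200 transcripts were lower on REC B, with a median deviation of -0.44, and 198 were lower on INV1 A, with -0.59. On INV1 B 197 were lower, with -0.49, and on SIM1 C 194 were lower, with -0.67. The median deviation of all transcripts on these arrays was between -0.01 and 0.01, since the deposited values of each sex share one distribution. Values below the lowest of the 14 arrays were found for 170 members (85%) on REC B, against 29.8% of all transcripts. On INV1 A there were 186 (93%, against 28.8%), on INV1 B 179 (89.5%, against 28.2%) and on SIM1 C 183 (91.5%, against 32.7%). On all 4 arrays at once this held for 153 members (76.5%, against 18.4% of all transcripts), and for 5 members it held on none. Values above the highest of the 14 were found for 1 member on REC B, 1 on INV1 A, 3 on INV1 B and 3 on SIM1 C. Of all transcripts, 26.9%, 27.2%, 26.1% and 29.8% lay above it, in the same order. The deviation did not stop at the list's end: the 200 transcripts that followed in rank had medians of -0.77 on SIM1 C, -0.53 on REC B, -0.73 on INV1 A and -0.57 on INV1 B, and the 600 after them had -0.81, -0.62, -0.80 and -0.60. The list's own medians were smaller in size. Ranks were set on these same male arrays, and the list lies higher on the intensity scale than the 200 transcripts after it. These medians therefore do not show how the deviation depends on male bias. Within the list, the mean deviation on the 4 arrays had a Pearson r of 0.33 with the male minus female difference. Its r with the male median was 0.32.

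**Figure D3:**
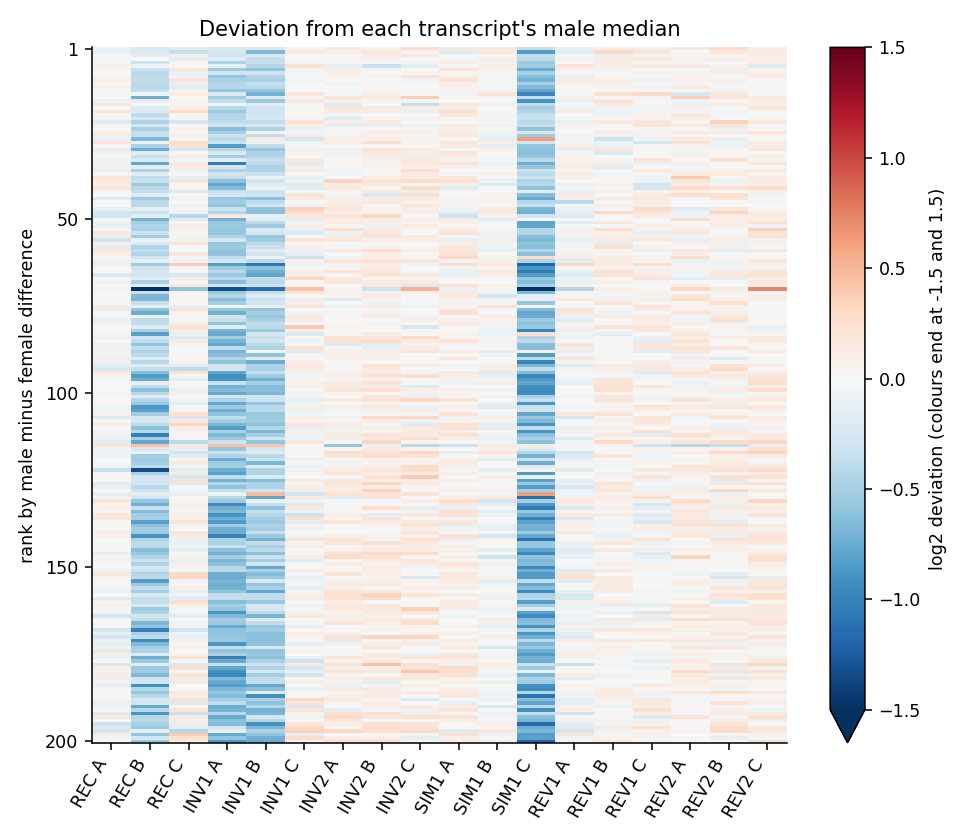
Deviation of each of the 200 transcripts (y axis, by rank of the male minus female difference) from its own median over the 18 male arrays (x axis), in log2 units, with blue for lower and red for higher values. The columns of SIM1 C, REC B, INV1 A and INV1 B are blue along nearly their whole length. They hold deviations over 0.5 below the median for 133, 63, 119 and 74 transcripts, without counts over all transcripts beside them. A few red cells, those at ranks 115 and 129 among them, stand out.

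The 4 arrays did not lower the same transcripts to the same degree. Across the 200 transcripts, the deviations on REC B and INV1 A had a Pearson r of 0.70 and those on INV1 B and SIM1 C one of 0.83, whereas the other 4 pairs had r between 0.20 and 0.41. Pairs among the other 14 male arrays, whose deviations are from a median they themselves set, had r from -0.58 to 0.62 with a median of -0.10, so r of 0.20 to 0.41 lies within what other arrays showed. Deviations on the 4 arrays share that median, which adds to each r. FBtr0114121, at rank 70, varied most of all, with a range of 1.35 between the male strain means. Its REC arrays read 13.77, 11.39 and 13.09, those of INV1 12.37, 12.55 and 14.14, those of INV2 13.74, 13.38 and 14.21, those of SIM1 13.60, 13.65 and 11.85, those of REV1 13.26, 13.78 and 13.74, and those of REV2 14.01, 13.85 and 14.43. The lowest 4 values were those of the 4 arrays, and the other 14 lay between 13.09 and 14.43. Its replicates spread so widely in REC (12.75 ± 1.23, SD, n = 3), INV1 (13.02 ± 0.97) and SIM1 (13.03 ± 1.03) that these strains did not part from REV2 (14.09 ± 0.30) in the test of the 6 strains (limma, Benjamini-Hochberg adjusted p = 0.436). FBtr0085277 came next, with a range of 0.90 and 12.42 on SIM1 C as its lowest value.

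A few transcripts went the other way or stayed level. FBtr0072454, at rank 115, was high on 3 of the 4 arrays. Its REC arrays read 13.54, 13.77 and 13.47, those of INV1 13.78, 13.75 and 13.37, those of INV2 12.74, 13.27 and 12.92, those of SIM1 13.02, 13.47 and 13.44, those of REV1 13.29, 13.39 and 13.03, and those of REV2 12.90, 12.96 and 13.21. All INV1 values exceeded all those of INV2 and REV2, and all REC values exceeded all those of INV2, REV1 and REV2. FBtr0085611, at rank 129, read 13.55 on INV1 B and 13.71 on SIM1 C and between 12.80 and 13.30 on the other 16 male arrays, while it had the lowest female median of the list (7.35). FBtr0072455, at rank 75, had the smallest range of male strain means, 0.13, with every male value between 13.56 and 13.95. FBtr0077561, at rank 26, followed with a range of 0.23 although its 4 lowest values, 13.82 to 14.03, were on the 4 arrays.

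**Figure D4:**
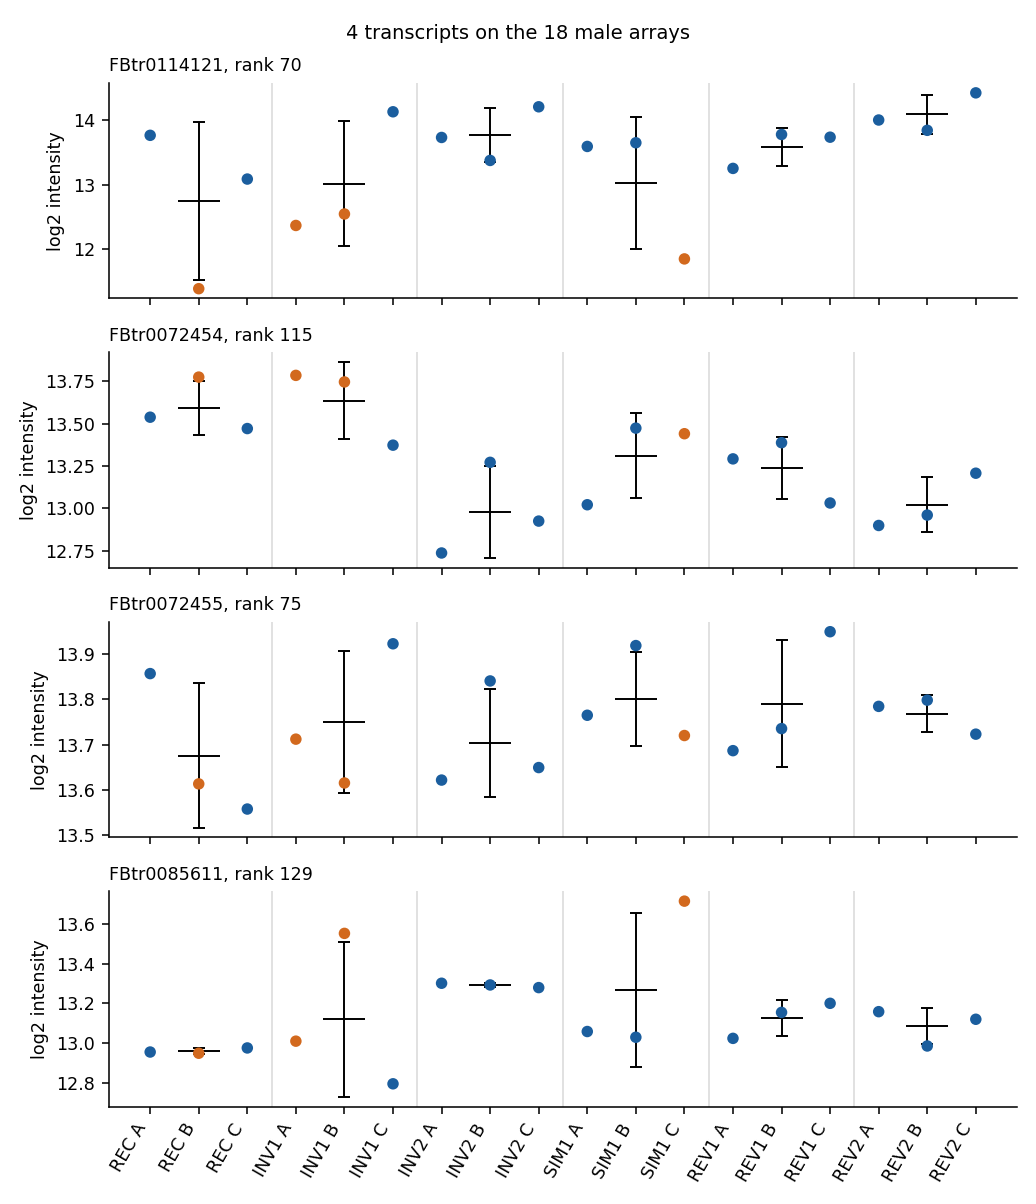
Log2 intensity (y axis) of FBtr0114121, FBtr0072454, FBtr0072455 and FBtr0085611 on the 18 male arrays (x axis), with SIM1 C, REC B, INV1 A and INV1 B in orange and the strain mean ± SD (n = 3) in black; the y axes differ and do not start at 0. The orange points are the lowest 4 for FBtr0114121 (11.39 to 12.55), include the 3 highest for FBtr0072454 (13.75 to 13.78) and the 2 highest for FBtr0085611 (13.55 and 13.71), and lie among the others for FBtr0072455.

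Whether the strains differed was tested within each sex over all transcripts, since strain played no part in the choice of the list. In males, none of the 200 transcripts differed between the 6 strains at an adjusted p under 0.01 (limma F-test), where 0.0781% of all transcripts did. At an unadjusted p under 0.05 there were 27 (13.5%), beside 19.6% of all transcripts, and the methods' one-way comparison called none either. The smallest adjusted p was 0.138, for FBtr0072454. The ranges of the male strain means had a median of 0.458 and exceeded 0.5 for 70 transcripts. No such ranges over all transcripts are given here, so these values do not set the list apart. The residual SD within strains had a median of 0.245, against 0.206 for all transcripts.

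The mean of INV1 and INV2 was first set against that of the white-eyed SIM1, REV1 and REV2. Inversion and eye colour differ together there and cannot be told apart, whereas REC shares the red eyes of INV1 and INV2. None of the 200 was called in males (background 0.0541%), with 2 at an unadjusted p under 0.05 (background 4.21%). The median difference was -0.09, with 18 of 200 transcripts above 0, beside 0.00 for all transcripts, and the median half-width of the 95% confidence intervals was 0.261. The smallest adjusted p was 0.687, for FBtr0079143 (-0.24, SE 0.081). Without the 4 arrays the median was 0.00 and 100 of 200 transcripts lay above 0. REC minus the white-eyed strains gave none called (background 0.0421%) and 13 at an unadjusted p under 0.05 (background 9.64%), a median of -0.11 with 34 above 0, and -0.04 with 75 above 0 without the 4 arrays. Without REC B alone the median was 0.04 with 122 above 0, so its sign rests on that array. FBtr0084914 had the smallest adjusted p there, 0.324 (-0.68, SE 0.189), with 13.56, 12.57 and 13.76 in REC, 12.57 being REC B. INV minus REC gave none called (background 0.012%), 5 at an unadjusted p under 0.05 (background 4.8%) and a median of 0.01, with 111 above 0. That median was -0.14 with 44 above 0 without REC B, 0.10 with 158 above 0 without REC C, and 0.04 with 118 above 0 without the 4 arrays, so it has no settled sign.

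Of the 6 comparisons in males, INV2 minus INV1 had the largest median. INV2 exceeded INV1 by a median of 0.40 on the log2 scale, with 196 of 200 transcripts higher in INV2, beside a median of 0.00 and 49.7% higher among all transcripts. None of the 200 was called (background 0.018%). At an unadjusted p under 0.05 there were 86 (43%), beside 31.8% of all transcripts. INV1 A and INV1 B are 2 of the 4 low arrays, and with INV1 C alone against the 3 INV2 arrays the median fell to 0.06, with 131 higher. FBtr0072454 had the smallest p in the list and the opposite direction, 0.66 lower in INV2 (log2 difference -0.66, SE 0.169, 95% interval -1.02 to -0.30, adjusted p = 0.0508), and its difference without the 4 arrays was -0.39. In every test without the 4 arrays INV1 males are the single array INV1 C, which is assumed to vary like the other strains, so those p-values are not set against the ones from 3 arrays. Both REV strains together exceeded SIM1 by a median of 0.23, with 192 higher and none called (background 0.012%), and 6 at an unadjusted p under 0.05 (background 6.68%). That median was 0.02, with 127 higher, without the 4 arrays. REV2 and REV1, which hold none of the 4, differed by a median of 0.05, with 140 higher in REV2 and none called (background 0%), and 2 at an unadjusted p under 0.05 (background 9.39%). Without the 4 arrays, too, none of the 200 was called in the F-test (background 0.186%), INV minus white-eyed (0.0661%), REC minus white-eyed (0.0361%), INV minus REC (0.00601%), INV2 minus INV1 (0.012%), REV2 minus REV1 (0.024%) or REV minus SIM1 (0.00601%). One fit of all 36 arrays, in which males and females share a residual spread, was the only alternative that called members in males. It called 9 in the F-test (4.5%, background 7.83%) and 28 in INV2 minus INV1 (14%, background 12.1%), 27 of them higher in INV2.

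**Figure D5:**
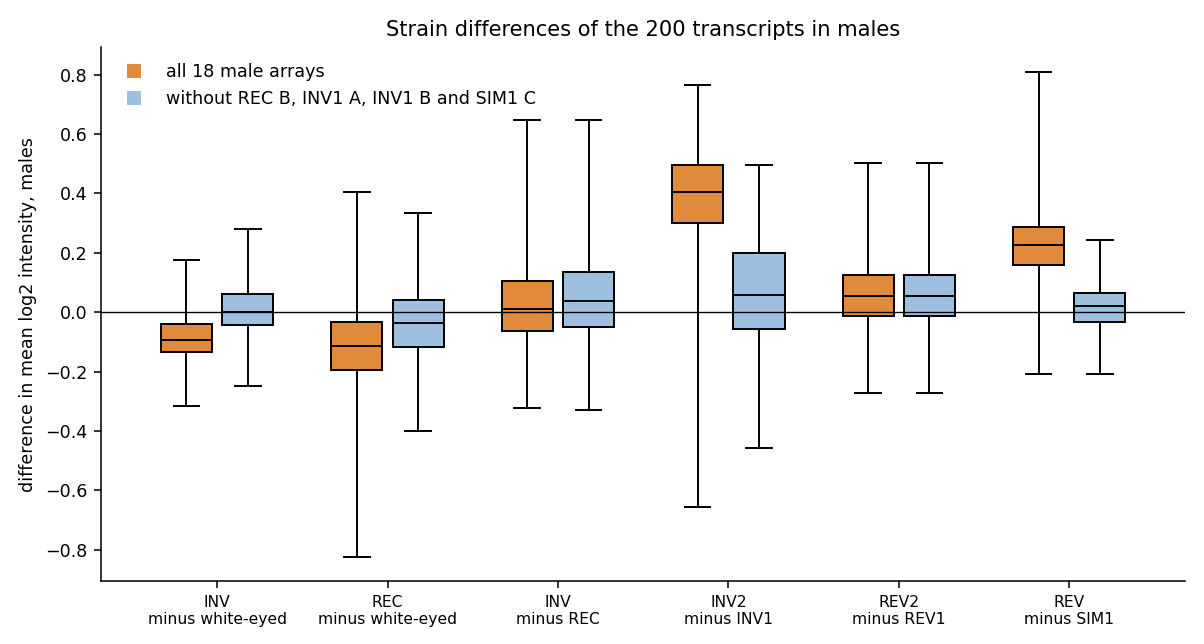
Difference in mean log2 intensity (y axis) of the 200 transcripts in males for 6 strain comparisons, over all 18 arrays (orange) and without SIM1 C, REC B, INV1 A and INV1 B (blue), with the box from the 25th to the 75th percentile, the median as a line and whiskers to the extremes; INV is the mean of INV1 and INV2, REV that of REV1 and REV2, and white-eyed that of SIM1, REV1 and REV2. The median of INV2 minus INV1 is 0.40 with all arrays and 0.06 without the 4, and that of REV minus SIM1 is 0.23 and 0.02.

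In females the strains stayed close together at the low level of these transcripts. None of the 200 differed between the 6 strains at an adjusted p under 0.01, where 10.1% of all transcripts did, and 16 (8%) had an unadjusted p under 0.05, beside 39% of all. The choice favours low female levels, and most other transcripts are brighter in females. Whether the members differ less than equally dim transcripts was not tested. The ranges of the female strain means had a median of 0.15, and 1 exceeded 0.5, again without a value for all transcripts beside them. The residual SD had a median of 0.084, against 0.109 for all transcripts. Of 3600 member values in females, 95.6% lay within 0.25 of the transcript's own median. Within 0.5 lay 99.8%, beside 98.2% of the values of all transcripts. None was called in INV minus white-eyed (background 4.4%), REC minus white-eyed (3.69%), INV minus REC (1.76%), INV2 minus INV1 (0.162%), REV2 minus REV1 (0.00601%) or REV minus SIM1 (2.89%). At an unadjusted p under 0.05 these comparisons held, in the same order, 10 members (background 26.5%), 43 (28.6%), 21 (26.2%), 20 (17.9%), 3 (9.94%) and 10 (26%). The median differences of the list lay between -0.05 and 0.05 in all of them.

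No female level could be set against a measured background. The highest median signal was that of FBtr0083185, at rank 149, with 8.65, 8.94 and 9.44 as its lowest, median and highest female values, followed by FBtr0091954, at rank 171, with 8.47, 8.83 and 9.09. The lowest were FBtr0085611, with 7.27, 7.35 and 7.52, and FBtr0087080, at rank 50, with 7.34, 7.42 and 7.56. Single female values lay over 0.5 above the transcript's median 7 times, in 6 transcripts, on REV2 B (3), REV1 B (2), REC B (1) and SIM1 A (1). The highest was 9.49 for FBtr0078000, at rank 57, on REV2 B, where its female median was 8.47.

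FBtr0078000 also came closest to a difference between strains in females, with the smallest adjusted p of the F-test, 0.0221. Its female REC arrays read 8.39, 8.38 and 8.47, those of INV1 8.40, 8.35 and 8.38, those of INV2 8.63, 8.46 and 8.56, those of SIM1 8.27, 8.31 and 8.47, those of REV1 8.52, 8.62 and 8.72, and those of REV2 8.76, 9.49 and 8.70. All 6 values of REV1 and REV2 exceeded all 3 of SIM1, by 0.45 on average (SE 0.124, 95% interval 0.19 to 0.72, limma adjusted p = 0.0294). Without REV2 B, its highest array, the difference was 0.33 and passed the threshold (adjusted p = 0.00360). FBtr0079856, at rank 72, had its lowest strain mean in REC (8.04, 7.93 and 8.24) and differed from the white-eyed strains by -0.39 (SE 0.107, adjusted p = 0.0281).

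The difference between the sexes itself was compared between strains. Its median over the 200 transcripts was lowest in the strains that hold the 4 low male arrays, at 5.57 for INV1, 5.68 for SIM1 and 5.78 for REC, and stood at 5.90 for REV1, 5.93 for INV2 and 5.94 for REV2. With the 4 male arrays left out, INV1, SIM1 and REC had 5.94, 5.89 and 5.93, within the range of the other strains or next to it. None of the 200 had a strain by sex interaction at an adjusted p under 0.01 (limma over all 36 arrays, background 1.5%), and 25 (12.5%) had an unadjusted p under 0.05, beside 28% of all transcripts. The smallest adjusted p was 0.0371, for FBtr0072454. In this fit males and females share a residual spread, although the members' residual SD had a median of 0.245 in males and 0.084 in females. By the methods, the progeny of the crosses were separated by sex. Male and female samples of a strain may thus share a cross, and the test treats them as independent. Without the 4 male arrays INV1 males are the single array INV1 C, so no interaction calls from that fit are given.

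Some of the 200 entries may not be separate measurements of separate genes. FlyBase numbers that follow each other occurred within the list for 45 transcripts, in 25 pairs. How often this occurs among all transcripts was not counted. Only 1 of these 25 pairs stayed within 0.25 on all 36 arrays, and their largest differences had a median of 0.64. Of the 19900 possible pairs of members, 17 stayed within 0.25 of each other on all 36 arrays. FBtr0114616 and FBtr0114617, at ranks 136 and 133, were the only pair within 0.15, with male medians of 13.59 and 13.56 and female medians of 7.87 and 7.83. Whether such pairs share a gene or probes was not tested.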

How the data were processed

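RNA of 36 samples was measured on one-colour NimbleGen arrays, extracted with TRIzol and purified on columns. The values the authors deposited are linear intensities per transcript. By the methods, log-transformed probe values were first summarized by their median and then normalized between arrays. The methods name scale normalization, but the sorted intensities of the 18 arrays of a sex differ by at most 1.15% at any rank in males and 0.976% in females, so a level within a sex is nearly a rank. The sexes keep different distributions, with medians of 1979 and 1339, which enters every difference between them. Background correction is not given in the sources used here.

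Intensities were converted to log2. limma 3.58.1 in R 4.3.3 (lmFit, eBayes) fitted 1 mean per strain within each sex over all transcripts, without a filter, for an F-test and 6 contrasts, and strain by sex over all 36 arrays. A transcript was called where p, adjusted over all transcripts by Benjamini-Hochberg, was under 0.01. Tables were handled in Python 3.11.15 with pandas 2.3.3, and the tests were tested on simulated data. The members, the lists and the 4 male arrays left out together were chosen with earlier results of these data known. Transcripts were named by rule: the 2 extremes in difference, male level, female level and range of male strain means, the ranks around the list's end, the transcript with a gene name, and, where no member was called, the one with the smallest p. FBtr0114616, FBtr0114617 and those named in the closing paragraphs on processing were added after their values were seen. The arrays follow annotation release 5.7 and the gene table a later assembly, Release 6 plus ISO1 MT. Sequences are not given here. Alternatives were scale and quantile normalization over all arrays, robust hyperparameters with an intensity trend, the methods' one-way comparison, tests without the dimmest 25% of transcripts, one fit of all arrays, an adjusted p under 0.05, a replicate block, leaving out the 4 male arrays or each array in turn, and lists of 100 or 400 transcripts. Depth does not apply to arrays, and their number limits the precision.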

Additional observations from a re-analysis of the deposited data

How the results depend on the processing

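Over 15 counts of called members, 401 of 414 alternatives gave the same count as the tests above, 0 in each. With an adjusted p under 0.05 there were 3 members in the F-test in females, 2 in REC minus white-eyed in females, 1 each in INV minus REC and REV minus SIM1 in females, and 1 (FBtr0072454) in the interaction. One fit of all 36 arrays, in which both sexes share a residual spread and its degrees of freedom, called 9 members in the F-test in males and 28 in INV2 minus INV1 in males. The count of the interaction also moved without the 4 male arrays. INV1 males are then the single array INV1 C, so that count is not given. Leaving out each array in turn gave 0 to 3 in the interaction (3 without male INV1 C), 0 to 1 in the F-test in females (1, FBtr0078000, without REV2 B or without REV2 C), 0 to 1 in REC minus white-eyed in females (1, FBtr0079856, without REV1 A) and 0 to 1 in REV minus SIM1 in females (1, FBtr0078000, without REV2 B). The cause was not tested. The replicate block gave 0 for every count. Replicate letters showed no clear pairing, and these values cannot exclude one. Deviations of same-lettered male arrays of different strains had a median correlation of -0.02, from -0.89 to 0.66, with 16 of 45 pairs over 0.1. Male and female arrays of a strain and letter reached 0.32, with 6 of 18 pairs over 0.1. Of 18 male arrays, 4 correlated best with the female array of their own letter and strain. Whether they share a cross was not tested.

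The median of INV2 minus INV1 in males moved from 0.40 to 0.056 without the 4 arrays, and the median differences of the members were recomputed by alternatives chosen after seeing the data. Leaving out each array in turn moved it between 0.29 and 0.58, and moved INV minus white-eyed in males between -0.18 and -0.04, REC minus white-eyed between -0.18 and 0.04, INV minus REC between -0.14 and 0.10, and REV minus SIM1 between 0.02 (without SIM1 C) and 0.35. The median male minus female difference was 5.30 after scale and 5.46 after quantile normalization over all arrays, where that of all transcripts was -0.12 and -0.21 in place of 0.37, and the 200 highest shared all but 1 of the members and 178 of them with the list. It was 6.17 for the 100 highest and 5.48 for the 400 highest. The median male level was 13.46 after scale normalization, 14.19 for the 100 and 13.49 for the 400 highest, and the median female level was 8.09 after scale and 8.31 after quantile normalization. The values used here hold no control probes, so how far female values lie above background was not measured.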
